A study of Mus musculus with 6 samples.

Results

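Transcript levels of 10 genes for chaperones and folding helpers of the endoplasmic reticulum were followed in lungs of mice exposed to fine airborne particles. The genes were *Hspa5*, *Hsp90b1*, *Calr*, *Pdia4*, *Pdia6*, *Sdf2l1*, *Creld2*, *Manf*, *Herpud1* and *Dnajb9*, chosen by name, and the table listed each of the 10 with 1 to 7 Ensembl transcripts, 36 in all. They are 10 of 22158 gene symbols with Ensembl transcripts. The lungs came from BALB/c mice, an inbred strain, with a labelled age of 9 weeks. Control mice received 50 µl of saline into the trachea, and exposed mice received PM2.5 (particles up to 2.5 µm across) at 5 mg per kg of body weight in the same volume, each once a week for 8 weeks. There were 3 libraries per group, numbered 2, 3 and 4. Each is a lung RNA library, and whether each library stands for a mouse of its own is not labelled. A p-value here therefore sets the difference against the spread among 3 libraries, which may be partly technical.

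The endoplasmic reticulum is where secreted and membrane proteins fold. Its lumen holds chaperones that bind unfolded chains, lectins that hold glycoproteins and enzymes that form disulfide bonds. When unfolded proteins build up, the sensors ATF6, IRE1 and PERK start the unfolded protein response, and ATF6 and the IRE1-activated factor XBP1 raise transcription of many chaperone genes. In the lung, alveolar type 2 cells, club cells and plasma cells carry a heavy secretory load.

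The best known DNA motif of that response is the endoplasmic reticulum stress element, ERSE, read here as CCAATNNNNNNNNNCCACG, through which ATF6 acts together with the CCAAT-binding factor NF-Y. A related form, ERSE-II, was read as ATTGG and CCACG with 1 base of any kind between them, and a further element, UPRE, as TGACGTGG. Promoters of 300 bases, from 250 before to 50 after the RefSeq start (assembly GRCm38.p6), were found for 9 of the 10 genes, with none for *Manf*, and both strands were searched. ERSE was present in 5 of these 9 promoters, against 0.119% of 32851 promoters of all genes. ERSE-II was present in 1 of 9, against 0.0365%, and UPRE in 0 of 9, against 0.676%. The genes were chosen by name, and the motifs are those of the response that raises chaperone genes. These shares therefore describe sequence and are no independent test. ERSE and ERSE-II share the letters CCACG, and no stretch of the 9 promoters matched both. The 4 promoters below show the element in *Hspa5*, the pair in *Hsp90b1*, the gene with the largest fold change, *Creld2*, and the ERSE-II form in *Herpud1*, 5′ to 3′ along the gene, with the matches in capitals:
*Hspa5*, chr2:34771840-34772139, plus strand: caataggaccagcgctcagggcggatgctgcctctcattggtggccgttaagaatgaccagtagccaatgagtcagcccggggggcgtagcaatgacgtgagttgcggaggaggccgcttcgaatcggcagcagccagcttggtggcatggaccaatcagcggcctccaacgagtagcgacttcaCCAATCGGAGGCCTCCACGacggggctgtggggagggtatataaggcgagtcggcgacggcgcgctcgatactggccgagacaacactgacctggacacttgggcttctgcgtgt
*Hsp90b1*, chr10:86705395-86705694, minus strand: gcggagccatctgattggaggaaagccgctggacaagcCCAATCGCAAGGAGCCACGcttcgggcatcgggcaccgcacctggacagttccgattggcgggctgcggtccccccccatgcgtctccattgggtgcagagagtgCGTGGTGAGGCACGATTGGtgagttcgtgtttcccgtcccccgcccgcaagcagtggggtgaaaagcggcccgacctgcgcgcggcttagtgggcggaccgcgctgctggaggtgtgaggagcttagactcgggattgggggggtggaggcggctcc
*Creld2*, chr15:88819396-88819695, plus strand: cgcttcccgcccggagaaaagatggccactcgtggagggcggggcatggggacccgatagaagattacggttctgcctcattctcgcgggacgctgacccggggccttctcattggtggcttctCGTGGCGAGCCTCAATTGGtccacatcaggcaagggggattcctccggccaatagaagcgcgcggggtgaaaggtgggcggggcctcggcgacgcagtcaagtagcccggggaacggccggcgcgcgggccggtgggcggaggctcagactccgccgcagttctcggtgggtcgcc
*Herpud1*, chr8:94386179-94386478, plus strand: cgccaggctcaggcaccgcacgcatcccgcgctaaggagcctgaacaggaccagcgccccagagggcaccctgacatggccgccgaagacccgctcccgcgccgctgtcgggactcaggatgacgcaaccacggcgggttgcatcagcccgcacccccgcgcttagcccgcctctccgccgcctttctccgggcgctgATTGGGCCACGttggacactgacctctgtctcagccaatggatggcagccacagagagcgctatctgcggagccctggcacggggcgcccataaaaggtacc

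In *Hspa5* the ERSE match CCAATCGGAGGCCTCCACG lay 65 to 47 bases before the start, on the coding strand. *Hsp90b1* carried a pair, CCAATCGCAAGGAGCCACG at 212 to 194 bases and, on the other strand, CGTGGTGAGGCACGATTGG at 107 to 89 bases before the start. The match in *Creld2*, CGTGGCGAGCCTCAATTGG, was on the other strand at 126 to 108 bases. *Pdia6* held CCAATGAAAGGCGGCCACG at 98 to 80 bases and *Calr* held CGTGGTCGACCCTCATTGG on the other strand at 162 to 144 bases. *Herpud1* had the ERSE-II match ATTGGGCCACG at 52 to 42 bases. None of the 3 motifs was spelled out in the windows of *Pdia4*, *Dnajb9* and *Sdf2l1*.

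Levels are in FPKM, fragments scaled for transcript length and sequencing depth and added up over the Ensembl transcripts of a gene, so they compare genes per length. The 10 genes together made up 0.226%, 0.193% and 0.204% of the Ensembl FPKM in saline replicates 2, 3 and 4. In PM2.5 replicates 2, 3 and 4 the share was 0.257%, 0.274% and 0.258%, so each PM2.5 library lay above each saline library. Summed FPKM of the 10 genes was 564, 432 and 447 with saline and 569, 619 and 555 with PM2.5, and on that scale the groups overlapped, with saline replicate 2 above PM2.5 replicate 4.

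*Hsp90b1* had the highest mean level, followed by *Calr*, *Hspa5*, *Pdia6*, *Pdia4*, *Herpud1*, *Dnajb9*, *Manf*, *Creld2* and *Sdf2l1*. Among PM2.5 libraries the ranges of neighbours in this order were separate, except those of *Dnajb9* and *Manf*. With saline, neighbours also overlapped from *Hsp90b1* to *Calr*, from *Calr* to *Hspa5* and from *Hspa5* to *Pdia6*, while *Pdia6* and *Pdia4* and the neighbours from there to *Dnajb9*, and from *Manf* to *Sdf2l1*, were separate.

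**Figure D1:**
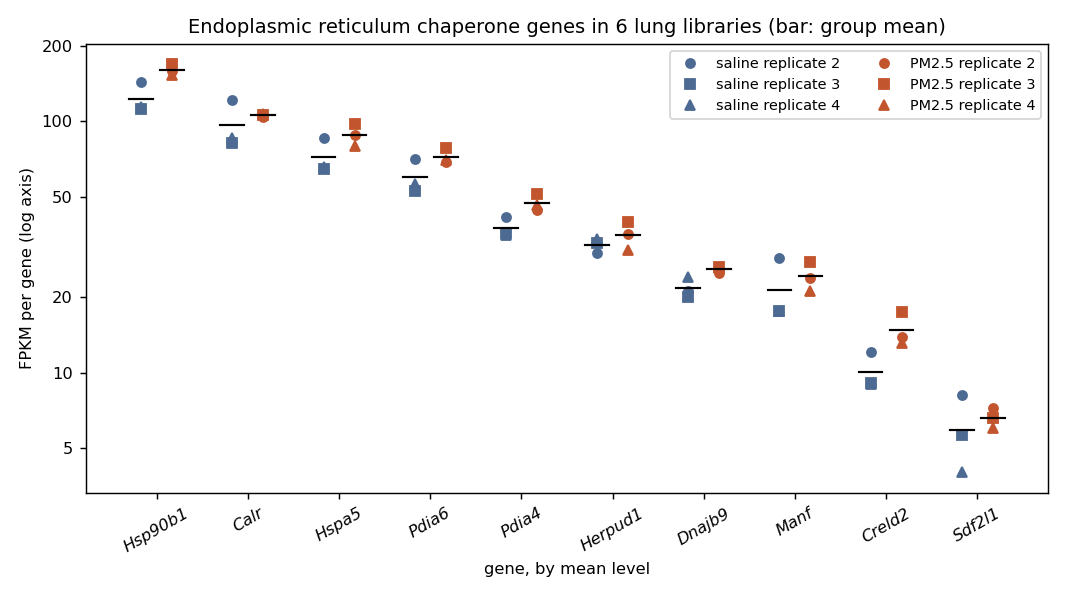
FPKM per gene (log axis) of the 10 genes in each of the 6 libraries, with blue points for saline, orange points for PM2.5, 1 symbol shape per replicate number, and a black bar at the mean of 3 libraries. The groups do not overlap for *Hsp90b1*, *Pdia4*, *Creld2* and *Dnajb9*, and saline replicate 2 (blue circles) is the highest saline library for 8 of the 10 genes.

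Mean levels of the 10 genes were higher with PM2.5, by modest amounts that did not pass the test. All 10 had a positive log2 fold change, from 0.12 for *Herpud1* to 0.54 for *Creld2*, with a median of 0.26, against a median of -0.03 over 14865 genes tested, of which 44% were positive. Over all genes, limma with Benjamini-Hochberg adjustment called 0 of the 10 higher, where it called 0.074% of all genes higher, and 0 lower, where it called 0.0202%. At an unadjusted p under 0.05, 4 of the 10 were higher, against 3.66% of all genes, and 0 were lower, against 7.82%. The same 4, *Hsp90b1*, *Pdia4*, *Creld2* and *Dnajb9*, had groups that did not overlap, against 7.04% of all genes. The 10 genes were chosen with earlier results of these data known, so a comparison with all genes is no independent test. In bulk lung RNA, more cells of a type and more RNA per cell cannot be told apart. The count of 4 rested on single libraries: it came to 7 with saline replicate 2 left out, to 0 with saline replicate 3 left out, to 1 with saline replicate 4 left out and to 2 with PM2.5 replicate 3 left out. Each fold change below is the PM2.5 mean minus the saline mean of log2(FPKM + 0.5), with the standard error and 95% confidence interval from limma.

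**Figure D2:**
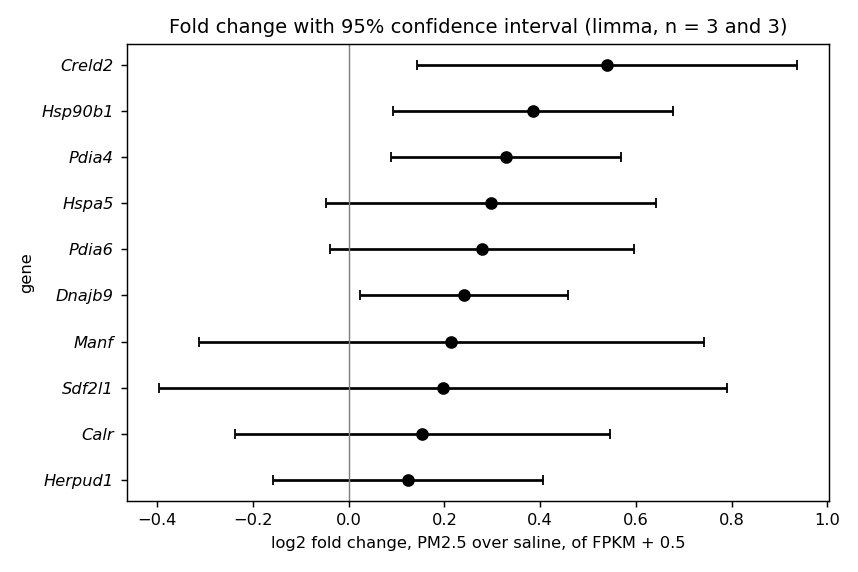
Log2 fold change of FPKM + 0.5, PM2.5 over saline, for each of the 10 genes (points), with 95% confidence intervals from limma (bars, 3 libraries per group). All 10 points lie above 0 and the intervals of *Creld2*, *Hsp90b1*, *Pdia4* and *Dnajb9* leave out 0 before adjustment for the number of genes.

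Among the chaperones that bind unfolded chains, *Hspa5* (chromosome 2, 34771970 to 34777547, mm10, plus strand) encodes BiP, the Hsp70 of the endoplasmic reticulum, which also keeps the sensors inactive. *Hspa5* stood at 86.3, 64.7 and 66.1 FPKM with saline and at 88.0, 97.4 and 80.2 with PM2.5. Its saline replicate 2 lay between PM2.5 replicates 4 and 2, so the groups overlapped. The log2 fold change of *Hspa5* was 0.30 ± 0.14 (SE, 95% interval -0.05 to 0.64, limma adjusted p = 0.486). *Hsp90b1* (chromosome 10, 86690209 to 86705509, minus strand) encodes GRP94, the Hsp90 of the compartment, needed for folding of integrins and Toll-like receptors. Its levels were 143.6, 112.0 and 114.2 FPKM with saline and 158.4, 168.8 and 153.4 with PM2.5. Every PM2.5 library lay above every saline library. The log2 fold change of *Hsp90b1* was 0.38 ± 0.12 (95% interval 0.09 to 0.68, limma adjusted p = 0.333). A short predicted gene, *Gm25745*, lies in the leading *Hsp90b1* transcript over 133 bases on its strand, at 45.1, 30.6 and 31.2 FPKM with saline and 42.1, 48.2 and 43.4 with PM2.5. How the counting split fragments between *Gm25745* and *Hsp90b1* is not given in the sources used here.

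*Dnajb9* and *Sdf2l1* encode helpers of BiP. ERdj4, the J-domain protein encoded by *Dnajb9* (chromosome 12, 44205897 to 44210068, minus strand), brings BiP to the sensor IRE1 and to misfolded proteins. *Dnajb9* measured 21.2, 20.1 and 24.0 FPKM with saline and 24.8, 26.2 and 26.2 with PM2.5. The groups did not overlap, by a small margin between saline replicate 4 and PM2.5 replicate 2. Its log2 fold change was 0.24 ± 0.09 (95% interval 0.02 to 0.46, limma adjusted p = 0.390). *Sdf2l1* (chromosome 16, 17130138 to 17132383, minus strand), whose product works in complexes with J-domain proteins, had the lowest level of the 10. It measured 8.14, 5.63 and 3.999 FPKM with saline and 7.25, 6.57 and 6.04 with PM2.5. The saline libraries spanned a wider range than the PM2.5 libraries, which lay inside it. The log2 fold change of *Sdf2l1* was 0.20 ± 0.24 (95% interval -0.40 to 0.79, limma adjusted p = 0.792), and it ranged from -0.035 without saline replicate 4 to 0.44 without saline replicate 2.

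*Calr* encodes calreticulin, a lectin that holds newly made glycoproteins and stores calcium (chromosome 8, 84841850 to 84846934, minus strand). *Calr* reached 122.1, 81.9 and 86.2 FPKM with saline and 104.6, 106.0 and 107.2 with PM2.5. The highest *Calr* value of the 6 was saline replicate 2, while the other saline libraries were the lowest. The means were 96.7 ± 22.1 and 106.0 ± 1.32 (SD, n = 3 each), with a log2 fold change of 0.15 ± 0.16 (SE, 95% interval -0.24 to 0.55, limma adjusted p = 0.746). Without saline replicate 2 it was 0.33 (limma adjusted p = 0.332, range over the 17 alternatives 0.332 to 0.954), and it came to 0.046 with saline replicate 3 left out and to 0.083 with saline replicate 4 left out.

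The disulfide enzymes are represented by *Pdia4* (ERp72) and *Pdia6* (P5), which form and rearrange disulfide bonds, and by *Creld2*, a stress-inducible protein with similar activity. *Pdia4* (chromosome 6, 47796141 to 47813430, minus strand) measured 41.6, 35.9 and 35.5 FPKM with saline and 44.3, 51.2 and 46.5 with PM2.5. Its groups did not overlap, and the log2 fold change was 0.33 ± 0.10 (95% interval 0.09 to 0.57, limma adjusted p = 0.325). For *Pdia6* (chromosome 12, 17266545 to 17284770, plus strand), which also attenuates IRE1 signalling, levels were 70.9, 52.8 and 56.3 FPKM with saline and 68.9, 78.3 and 70.1 with PM2.5. Saline replicate 2 of *Pdia6* lay above PM2.5 replicates 2 and 4, and the log2 fold change was 0.28 ± 0.13 (95% interval -0.04 to 0.60, limma adjusted p = 0.480). *Pdia6* shares 50 bases with *Atp6v1c2* on the opposite strand, and the kit does not mark strand. *Creld2* (chromosome 15, 88819646 to 88826681, plus strand) measured 12.1, 9.07 and 9.00 FPKM with saline and 13.8, 17.5 and 13.1 with PM2.5. Its groups did not overlap. *Creld2* had the largest log2 fold change of the 10 genes, 0.54 ± 0.16 (95% interval 0.14 to 0.94, limma adjusted p = 0.325, range over the 17 alternatives 0.245 to 0.624).

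*Manf* encodes a small protein that is kept in the lumen by BiP and secreted under stress, with cell-protective activity (chromosome 9, 106838312 to 106891979, minus strand). *Manf* levels were 28.6, 17.6 and 17.5 FPKM with saline and 23.8, 27.6 and 21.2 with PM2.5. Saline replicate 2 was the highest library and the other saline libraries were the lowest, with a log2 fold change of 0.21 ± 0.22 (95% interval -0.31 to 0.74, limma adjusted p = 0.736). It was 0.44 without saline replicate 2, 0.10 without saline replicate 3, 0.098 without saline replicate 4, and 0.12 if PM2.5 replicate 3 was left out. The leading *Manf* transcript shares 14 bases with *Rbm15b* on the same strand. The *Manf* sum in saline replicate 2 included 4.26 FPKM from ENSMUST00000159620, which spans 53561 bases and was picked out after its values were seen. That transcript measured 0.603 and 0 in saline replicates 3 and 4 and 0.066, 0.062 and 0.12 with PM2.5. *Manf* was not summed without it. *Herpud1* is no chaperone: it encodes a membrane protein that joins the ubiquitin ligase complex degrading misfolded proteins (chromosome 8, 94386438 to 94395377, plus strand). It measured 29.9, 32.7 and 34.1 FPKM with saline and 35.5, 39.8 and 30.7 with PM2.5. PM2.5 replicate 4 fell within the saline range, and the log2 fold change was 0.12 ± 0.12 (95% interval -0.16 to 0.41, limma adjusted p = 0.717). *Herpud1* came to 0.071 without saline replicate 2, 0.036 without PM2.5 replicate 3 and 0.22 without PM2.5 replicate 4.

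Saline replicate 2 stood apart from the other saline libraries for most of these genes. It was the highest saline library for 8 of the 10 genes, all but *Herpud1* and *Dnajb9*, and the highest of all 6 libraries for *Calr*, *Manf* and *Sdf2l1*. PM2.5 replicate 3 was the highest of the 6 for the other 7. In the leading *Manf* transcript alone PM2.5 replicate 3 was the highest, at 17.2 FPKM against 15.9 in saline replicate 2. The mean deviation of the 10 genes from their own averages was 0.09, -0.26 and -0.25 on the log2 scale in saline replicates 2, 3 and 4. It was 0.12, 0.25 and 0.05 in the PM2.5 libraries. The median log2 fold change of the 10 genes was 0.42 without saline replicate 2, and 0.19 or 0.24 when saline replicate 3 or 4 was left out instead. Saline replicate 2 also had the largest total of the 6 libraries, 388125 FPKM against 345089 to 373635 in the others. After median-ratio scaling, which evens out such differences, the median of the 10 genes was 0.30, beside 0.01 over all genes.

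**Figure D3:**
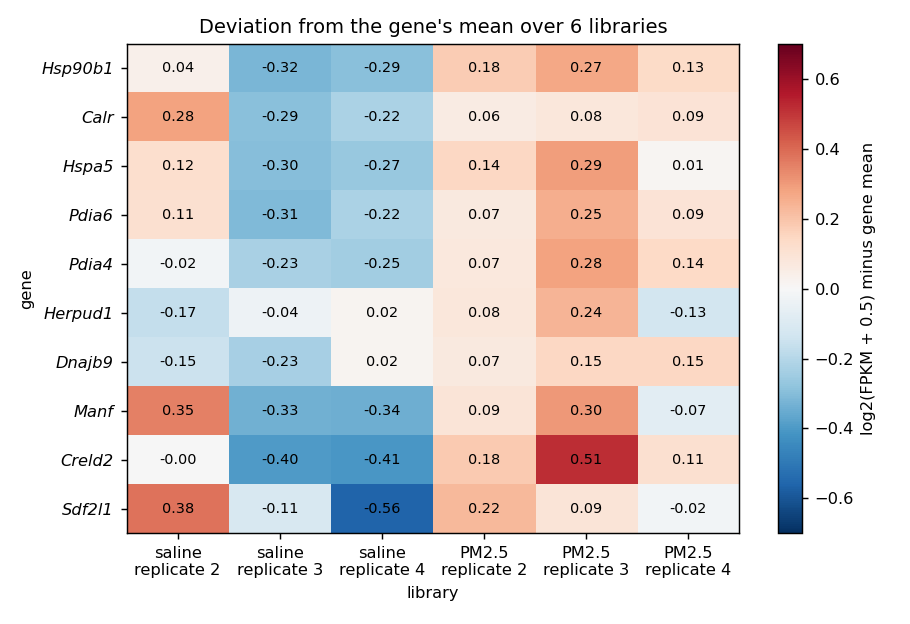
Deviation of log2(FPKM + 0.5) from the mean of each gene over the 6 libraries, as a colour and a printed value, for the 10 genes (rows, by mean level) and the libraries (columns). Saline replicates 3 and 4 hold the lowest values for 9 of the 10 genes and PM2.5 replicate 3 the highest for 7, while saline replicate 2 lies near the PM2.5 libraries for most.

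The gene sums hold transcripts that did not move together. In the transcript comparison, 30 of the 36 transcripts averaged 0.5 FPKM or more and were tested. Limma called 0 of these 30 (smallest adjusted p = 0.372), where it called 0.152% of 60525 transcripts of all kinds, 0.0777% higher and 0.0743% lower. At an unadjusted p under 0.05, 6 of the 30 were higher and 1 lower, against 4.56% and 4.89% of all transcripts. For each of the 10 genes the transcript with the highest mean had a log2 fold change above 0, against 50.2% of all transcripts. The median was 0.34, against -0.024 for the leading transcripts of 14409 genes. Of these 10, 6 had groups that did not overlap, against 8.77% of all transcripts. The shares of all transcripts cover every kind, leading or not, and so are no like-for-like measure for leading transcripts. Of the other 20 tested transcripts 15 had a log2 fold change below 0, and their median was -0.14. The same share over the other transcripts of all genes was not taken, so whether this is particular to the 10 genes is not known. Of these 20, 1 had groups that did not overlap with PM2.5 higher and 2 with PM2.5 lower, the latter against 8.31% of all transcripts.

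*Herpud1*, picked out after its values were seen, held such a pair of transcripts. The leading transcript ENSMUST00000034220, with 76.4% of the gene's mean level, measured 21.1, 24.1 and 22.4 FPKM with saline and 28.1, 32.9 and 26.2 with PM2.5, with no overlap between groups. Its log2 fold change was 0.36 ± 0.12 (SE, limma adjusted p = 0.497). The shorter ENSMUST00000160866, which spans 1379 bases, measured 7.81, 5.57 and 6.66 with saline and 6.43, 3.24 and 1.85 with PM2.5, with a log2 fold change of -0.86 ± 0.40 (limma adjusted p = 0.555). Another *Herpud1* transcript, ENSMUST00000159450, held 6.76% of the mean level and had a log2 fold change of -0.066. Transcripts outside the leading one held 29.5%, 26.4% and 34.4% of *Herpud1* with saline and 20.8%, 17.3% and 14.5% with PM2.5, and these groups did not overlap.

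The main *Hspa5* transcript ENSMUST00000100171 held 73.2% of the gene's mean level and measured 61.7, 47.3 and 44.6 FPKM with saline and 63.6, 75.7 and 60.3 with PM2.5. A further *Hspa5* transcript, ENSMUST00000028222, with 19.4%, measured 16.3, 12.7 and 15.3 and then 16.6, 16.6 and 16.3. Their log2 fold changes were 0.38 and 0.16, and in both transcripts saline replicate 2 overlapped the PM2.5 libraries. *Manf* is spread over more transcripts. Its leading ENSMUST00000159283, with 62.1% of the mean level, had a log2 fold change of 0.14, and ENSMUST00000069036, with 12.2%, had 0.27. Between them in rank, ENSMUST00000160978 with 15.4% measured 2.86, 1.60 and 1.45 FPKM with saline and 5.06, 6.19 and 3.84 with PM2.5, with no overlap. That transcript of *Manf* had a log2 fold change of 1.18 ± 0.27 and the lowest p of the 30 (limma adjusted p = 0.372). For *Pdia6*, transcripts outside the leading one held 14.5%, 13.5% and 15.0% with saline and 8.93%, 4.62% and 11.9% with PM2.5, again without overlap. For *Calr* the share was 7.91%, 8.27% and 10.4% and then 7.33%, 4.65% and 6.25%, also without overlap. For *Manf* the share was 44.4%, 38.2% and 22.6% and then 41.1%, 37.7% and 37.9%, and the groups overlapped. They also overlapped for *Hspa5*, *Hsp90b1* and *Pdia4*. The 44.4% of *Manf* in saline replicate 2 included the 4.26 FPKM of ENSMUST00000159620. How often such shares separate the groups over all genes was not counted.

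Over the 7 of the 10 genes with several transcripts, those outside the leading one held 12.9% to 14.9% of the summed level with saline and 9.58% to 11.8% with PM2.5. Over 10310 tested genes with several transcripts the share of their summed level was 30.1% to 31.4% with saline and 29.2% to 30.4% with PM2.5. Ensembl transcripts listed at 0 made up 14.4% to 15.5% of the list with saline and 15.4%, 16.9% and 18.8% in PM2.5 replicates 2, 3 and 4. Its part in the transcript shares was not tested.

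**Figure D4:**
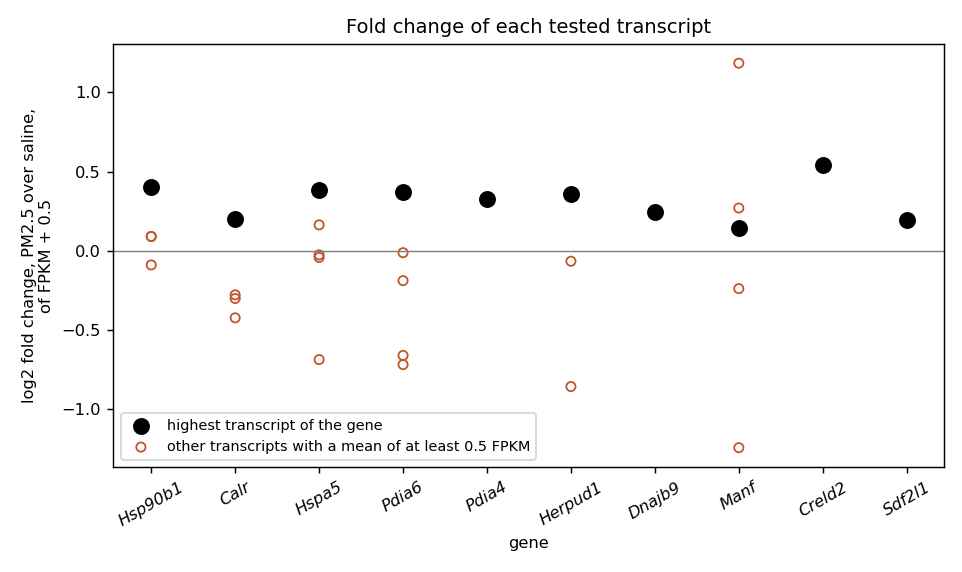
Log2 fold change of FPKM + 0.5, PM2.5 over saline, of each tested Ensembl transcript of the 10 genes, with a black point for the transcript with the highest mean of each gene and open circles for the others. The 10 black points lie above 0, and 15 of the 20 open circles lie below 0.

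Other genes of protein folding and of the unfolded protein response were read from lists chosen by function, with earlier results of these data known. Limma called 0 genes in each list, where it called 0.0942% of all genes in either direction. Among 29 tested chaperones and oxidoreductases of the endoplasmic reticulum that are not among the 10, 18 had a mean log2 difference above 0, and the median was 0.09. At an unadjusted p under 0.05, 4 were higher, against 3.66% of all genes, and 2 lower, against 7.82%. The cochaperone *Dnajc3* measured 33.1, 32.2 and 32.8 FPKM with saline and 41.7, 44.4 and 40.2 with PM2.5, a log2 fold change of 0.36 ± 0.07 (limma adjusted p = 0.195). *Hyou1*, which exchanges the nucleotide of BiP, measured 6.71, 10.2 and 8.99 and then 13.8, 17.9 and 33.8 (log2 fold change 1.21 ± 0.34, limma adjusted p = 0.303). In both genes the groups did not overlap, and PM2.5 replicate 4 was far above the rest for *Hyou1*. The disulfide isomerase gene *Pdia5* had a log2 fold change of 0.34 and the collagen-folding isomerase gene *Fkbp10* one of -0.37. Named for their roles after their values were seen, *Pdia3*, *Canx* and *P4hb* had log2 fold changes of 0.22, 0.18 and 1.04, and *P4hb* spread widely over the saline libraries, at 73.6, 107.5 and 19.2 FPKM, and came to 0.31 without saline replicate 4.

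Of 15 tested sensors and transcription factors of the response, 7 lay above 0 in log2 fold change and 8 below, and the median was -0.013, with 1 higher and 2 lower at an unadjusted p under 0.05, against 3.66% and 7.82% of all genes. The sensor gene *Atf6* measured 4.72, 4.54 and 4.96 FPKM with saline and 6.14, 6.09 and 6.51 with PM2.5, with no overlap (log2 fold change 0.36 ± 0.09, limma adjusted p = 0.260). With NONCODE transcripts added, *Atf6* came to 0.18 (limma adjusted p = 0.454, range over the 17 alternatives 0.228 to 0.563). Its relative *Atf6b* had a log2 fold change of -0.24, the stress factor *Atf3* one of -0.94 and the membrane-bound factor *Creb3l2* one of 0.13. For their roles, and after their values were seen, *Xbp1*, *Ern1* (IRE1), *Eif2ak3* (PERK), *Atf4* and *Ddit3* (CHOP) are added, with log2 fold changes of 0.12, 0.086, 0.042, -0.24 and -0.14. None of these 5 had groups without overlap. Summed RNA levels do not show whether the sensors or factors were active. *Eif2ak3*, *Atf4* and *Ddit3* changed sign when single libraries were left out.

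Of 17 genes downstream of PERK and ATF4, 13 lay below 0 in log2 fold change and 4 above, where 44% of all genes lay above, and the median was -0.35. At an unadjusted p under 0.05, 5 were lower, against 7.82% of all genes, and 0 higher, against 3.66%. In 8 of the 17 the PM2.5 libraries lay below the saline libraries without overlap, against 11.8% of all genes. *Ddit4*, an inhibitor of the growth kinase mTORC1, measured 22.3, 43.1 and 21.5 FPKM with saline and 5.59, 5.36 and 1.17 with PM2.5 (log2 fold change -2.84 ± 0.57, limma adjusted p = 0.205). The stress genes *Gadd45a*, *Cebpb* and *Sesn2* had log2 fold changes of -1.03, -0.89 and -0.35. These genes respond to other stresses as well.

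Among 21 genes of degradation from the endoplasmic reticulum, 14 were positive, with a median of 0.043, and 2 were higher and 0 lower at an unadjusted p under 0.05, against 3.66% and 7.82% of all genes. *Derl3*, a channel protein gene that also marks plasma cells, measured 0.445, 0.357 and 0.508 FPKM with saline and 0.817, 1.08 and 1.95 with PM2.5 (log2 fold change 0.88 ± 0.26, limma adjusted p = 0.321). *Sel1l*, the adaptor of the ligase complex, had a log2 fold change of 0.16, *Erlec1* -0.18 and the ubiquitin-conjugating enzyme gene *Ube2g2* 0.45. In the list of translocation, signal peptide cleavage and vesicle exit 17 of 36 were positive, with a median of -0.022, and 1 was higher and 3 lower at that level, near the shares of all genes, 3.66% and 7.82%. The channel subunit gene *Sec61b* measured 24.8, 18.6 and 17.7 FPKM with saline and 9.98, 10.3 and 9.87 with PM2.5 (log2 fold change -0.97 ± 0.14, limma adjusted p = 0.110). *Sec61g* and *Srp9* had log2 fold changes of -0.50 and -0.34. *Ddost*, a subunit of the glycosylating enzyme, was 6.42, 43.4 and 7.06 with saline and 43.2, 45.6 and 45.4 with PM2.5. The log2 fold change of *Ddost* was 1.78 (limma adjusted p = 0.426). Without saline replicate 3, the saline library that overlapped the PM2.5 libraries, it was 2.64 (limma adjusted p = 0.00540), and without any other library it lay between 1.31 and 1.80 and did not pass (limma adjusted p from 0.532 to 0.604).

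Heat shock chaperones outside the endoplasmic reticulum mostly had higher means with PM2.5, and none passed the test. Of 21 cytosolic and mitochondrial genes 17 lay above 0 in log2 fold change, against 44% of all genes, and the median was 0.46. At an unadjusted p under 0.05, 10 were higher, against 3.66% of all genes, and 0 lower, against 7.82%. The 4 below 0, named after their values were seen, were *Hspa1a* at -0.66, *Hspa1b* at -0.046, *Hspa9* at -0.080 and *Bag3* at -0.076. *St13*, a cochaperone of Hsp70, measured 5.10, 3.37 and 2.40 FPKM with saline and 16.9, 18.4 and 23.7 with PM2.5 (log2 fold change 2.33 ± 0.26, limma adjusted p = 0.0786). *Hspb1*, *Hsph1* and *Chordc1* had log2 fold changes of 1.11, 1.23 and 1.06, and *Hsph1* came to 2.77 with its leading transcript alone. The summed level of the 21 genes was 765, 535 and 554 FPKM in saline replicates 2, 3 and 4 and 1013, 1076 and 860 with PM2.5. Saline replicate 2 was the highest saline library here too, and below each PM2.5 library. A difference between this list and the 10 genes was not tested.

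**Figure D5:**
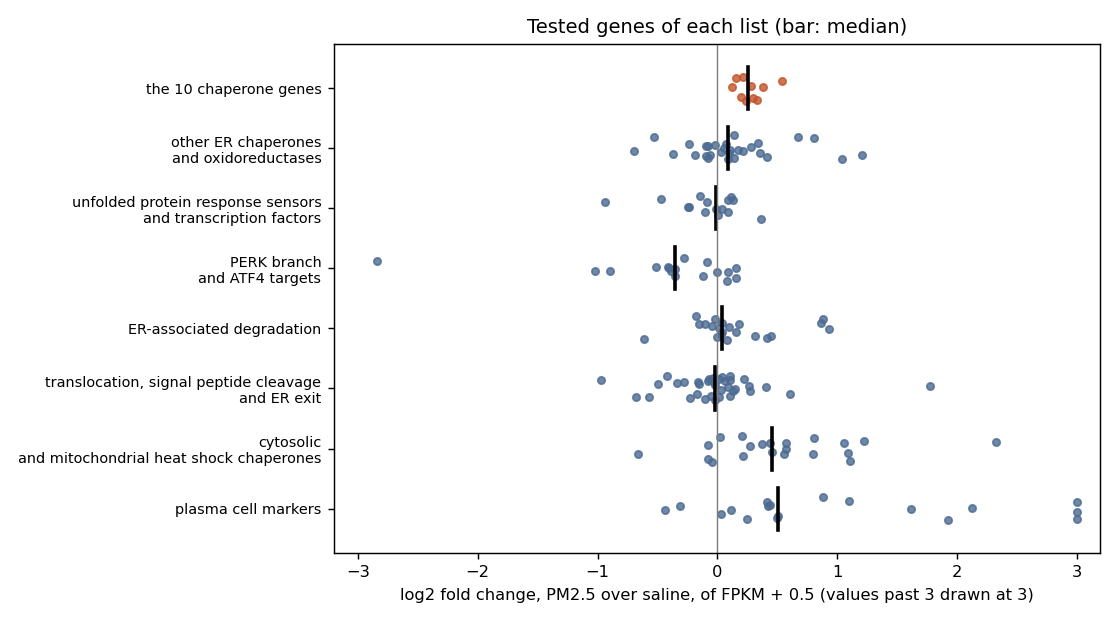
Log2 fold change of FPKM + 0.5, PM2.5 over saline, of each tested gene (points) in 8 lists, with a black bar at the median of each list and values past 3 drawn at 3. The 10 chaperone genes (orange) lie between 0.12 and 0.54, close together around their median of 0.26, while the PERK and ATF4 list has a median of -0.35.

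Genes outside the 10 whose promoter held an ERSE or ERSE-II match numbered 43. Of these 19 were tested, 10 lay above and 9 below 0 in log2 fold change, and the median was 0.020. Limma called 0, against 0.0942% of all genes. At an unadjusted p under 0.05, 3 were higher, against 3.66% of all genes, and 0 lower, against 7.82%. *Dnajc3* and *Derl3*, named above, were among these 3. Groups did not overlap in 4 with PM2.5 higher, against 7.04% of all genes, and in 1 with PM2.5 lower, against 11.8%. Among the 10 genes, the 6 with a match had a median log2 fold change of 0.29 and the 3 whose promoter held none had 0.24. The 5 other genes whose profile over the 6 libraries was most like the mean profile of the 10 were *Stx4a*, *Ube2q2*, *Stard3*, *Pcmt1* and *Ccng2*, with root mean square differences of 0.031, 0.036, 0.040, 0.041 and 0.049 log2 units. They were ranked among 4651 genes averaging 10 FPKM or more, and the same measure ran from 0.033 for *Hspa5* to 0.20 for *Sdf2l1* within the 10. *Stx4a* measured 16.6, 12.3 and 12.6 FPKM with saline and 16.2, 17.8 and 14.9 with PM2.5.

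Plasma cells make large amounts of endoplasmic reticulum, and most of their markers had higher means with PM2.5. Of 18 tested plasma cell markers 16 lay above 0 in log2 fold change, the median was 0.50, and limma called 0. Below 0, and named after their values were seen, were *Pou2af1* at -0.44 and *Cd79a* at -0.31. Among tested markers other than antibody and J chain genes, groups did not overlap for *Prdm1*, *Derl3* and *Slamf7*. Groups overlapped for *Mzb1*, *Sdc1*, *Irf4*, *Xbp1*, *Txndc5*, *Fkbp11*, *Pou2af1* and *Cd79a*. At an unadjusted p under 0.05, 8 were higher, against 3.66% of all genes, and 0 lower, against 7.82%. Their summed level ran from 231 to 329 FPKM with saline and from 675 to 1250 with PM2.5. The antibody genes *Igha*, *Igkc* and *Ighg1* had log2 fold changes of 1.62, 2.13 and 5.32 (limma adjusted p of 0.0808, 0.157 and 0.0912). *Ighg3* was listed at 0, 0 and 0.363 FPKM with saline and measured 20.1, 8.51 and 34.7 with PM2.5 (limma adjusted p = 0.0702), and *Tnfrsf17*, *Ighg2b*, *Ighg2c* and *Ighg3* were each listed at 0 in at least 1 library. The list shares *Xbp1*, *Txndc5*, *Derl3* and *Fkbp11* with the folding and degradation lists. Saline replicate 2 was at 287 in the marker sum, between the other saline libraries at 231 and 329. PM2.5 replicate 4 was the highest at 1250, of which *Igkc* made up 750. Without *Igkc*, taken out after its values were seen, the sum ran from 148 to 181 with saline and from 342 to 500 with PM2.5. The part of plasma cells in the chaperone levels was not tested.

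Defining markers of lung were present. Alveolar type 2 markers summed to 12720, 5716 and 5716 FPKM with saline and 10974, 6227 and 6663 with PM2.5, and 5 of the 10 genes had a log2 fold change above 0. Saline replicate 2 and PM2.5 replicate 2 had the highest sums through 1 gene, the surfactant gene *Sftpc*, at 8108 and 6618 FPKM there and at 588 to 1952 in the other libraries. Without *Sftpc*, taken out after its values were seen, the sums were 4612, 5029 and 4855 with saline and 4355, 5640 and 4711 with PM2.5, and saline replicate 2 was then the lowest saline library. Club and mucous secretory markers ran from 7263 to 9236 with saline and from 5013 to 5887 with PM2.5. Without their leading gene *Scgb1a1*, also taken out after its values were seen, they ran from 886 to 1460 and from 932 to 2449.

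Of 6 tested mesothelial markers 5 were above 0, with a median log2 fold change of 0.52, and 3 were higher and 0 lower at an unadjusted p under 0.05, against 3.66% and 7.82% of all genes. Their summed level ran from 126 to 127 FPKM with saline and from 111 to 147 with PM2.5, so the groups overlapped. Without the leading gene *Krt19*, taken out after its values were seen, it ran from 46.9 to 57.1 and from 62.8 to 74.1, with no overlap. All 9 tested cardiac muscle markers were below 0, with a median of -1.70 and sums of 178 to 383 with saline and 37.5 to 269 with PM2.5. Type 1 markers (median -0.0034) ran from 817 to 888 and from 765 to 936, macrophage markers (median -0.061) from 261 to 299 and from 258 to 311, and neutrophil markers (median 0.21) from 35.5 to 47.7 and from 28.7 to 59.7. Endothelial markers (median -0.076, 7 of 8 below 0) ran from 947 to 1003 and from 783 to 868, and fibroblast markers (median -0.11) from 664 to 692 and from 561 to 609. Without their leading gene *Cdh5*, whose own log2 fold change was -0.10, endothelial sums ran from 716 to 778 and from 579 to 645, still apart. The largest difference of that list was in *Cldn5*, with a log2 fold change of -1.11 (limma adjusted p = 0.139). *Cldn5* measured 225, 257 and 164 FPKM with saline and 97.5, 107 and 90.2 with PM2.5. Endothelial sums without *Cldn5* were not taken, so the separation may rest on this gene. Fibroblast sums without *Mfap4* ran from 285 to 378 and from 262 to 340, and these overlapped. Limma called 0 genes in each of these 9 lists, where it called 0.0942% of all genes. At an unadjusted p under 0.05 there were at most 3 higher and 2 lower per list, against 3.66% and 7.82% of all genes. The lists with 2 lower were type 1 markers, with 8 tested and 1 higher, and cardiac muscle markers, with 9 tested and 0 higher. The part of any of these cell types in the chaperone levels was not tested.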

How the data were processed

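Lung RNA for 3 saline and 3 PM2.5 libraries was extracted with Trizol, and libraries were made from 2 µg with the unstranded NEBNext Ultra kit, per the labels' protocols. HISAT2, bcl2fastq and build mm10 are named, per the submitters' processing notes; the sources used here give no tool version, quantifier or annotation. The deposited values, single per transcript and library, were read as FPKM from their size, since the header names no unit. The table held 70782 Ensembl, 66167 NONCODE and 12779 MERGE transcripts, the last without gene or position and with 17.6% to 20.6% of the FPKM, so a gene's value leaves out fragments placed there. Low values did not fall on whole steps (9.99% to 18.3% of them within 0.05 of one), so no counts were recovered and the depth is unknown. A value of 0 can be a failed estimate.

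Ensembl FPKM were summed per symbol. Genes averaging 0.5 FPKM or more, and separately such transcripts of all kinds, entered limma 3.58.1 (R 4.3.3, with the data.table package, 1.17.8) as log2(FPKM + 0.5), using trended empirical Bayes moderation, a 2-sided test, Benjamini-Hochberg adjustment over all features and a threshold of 0.05. Such fold changes understate those of low genes. The test was tried on simulated data with fold changes larger than those of the 10 genes. How often changes of their size would be called is not known. The 10 genes and the lists were chosen with earlier results of these data known. Named were the 10 genes, up to 4 genes with the lowest p of a list, member transcripts with at least 5% of their gene, and the 5 genes with the most similar profile; exceptions are stated. Alternatives were pseudocounts of 1 and 0.1, no filter, a higher filter of 2 FPKM, median-ratio and quantile scaling, robust moderation, array weights, each library left out, the replicate number as a block, sums with NONCODE transcripts at least 50% inside a gene, and the leading transcript alone. Promoters came from RefSeq (GRCm38.p6); protein sequences were not used here.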

Additional observations from a re-analysis of the deposited data

How the results depend on the processing

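Adjusted over all genes, 0 of the 10 chaperone genes passed in any of the 17 alternatives, with limma adjusted p from 0.216 to 0.961, and their log2 fold changes were positive in each except *Sdf2l1*, which ranged from -0.035 without saline replicate 4 to 0.44 without saline replicate 2. The number at an unadjusted p under 0.05 ran from 0 to 7 on leaving out a library and from 3 to 6 in the other alternatives. Over all genes limma called 14 genes, 9 with a mean of at least 2 FPKM, 33 with the leading transcript alone and 5 to 26 on leaving out a library. Of transcripts 92 were called, and 127 to 184 on leaving out a library. The replicate number as a block left 1 gene and 5 transcripts, and the labels do not say what a number marks. Deviations of same-numbered libraries from their group means correlated across genes at -0.03, -0.03 and 0.05. Libraries with unlike numbers correlated at -0.07 to 0.09. With 3 libraries per group such values cannot decide whether the numbers pair the samples. On leaving out a library *Atf4* ranged from -0.56 to 0.060, *Ddit3* from -0.28 to 0.029 and *Eif2ak3* from -0.019 to 0.097. With the leading transcript *Ddit3* came to 0.024 and *Ccng2* to -0.12, and with NONCODE transcripts added *Eif2ak3* came to -0.039; the cause was not tested. *Ddost*, *Ighg1*, *Ighg3* and *St13* passed in 1 alternative each, on leaving out a library. With 3 libraries per group and unknown depth, the 95% intervals of the 10 genes reach log2 fold changes of 0.41 to 0.94.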
